A study of Danio rerio with 8 samples.

Results

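The genes described here encode the degradative machinery of the lysosome: cathepsins and legumain, glycosidases and sialidases with the saposin precursor, lysosomal membrane proteins, and the subunits of the vacuolar proton pump. The set holds every row whose symbol begins with cts and a letter, atp6v, atp6ap, lamp, hex, man2b, gba, glb, gusb, naga, neu, psap, lgmn or mcoln, which gave 48 of 10479 genes. This set was chosen with earlier results of these data known. All 48 passed the filter on low values. The prefixes also caught 3 genes of other functions. These were HEXIM2 (an inhibitor of a transcription elongation kinase), NEURL4 and the ubiquitin ligase gene NEURL1. The other 45 genes encode hydrolases, lysosomal membrane proteins or pump parts. GBA2, a glucosylceramidase outside the lysosome, and NEU3, a sialidase of the plasma membrane, are among the 45.

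RNA came from macrophage reporter cells of adult zebrafish hearts, from fish of 6 to 9 months carrying the transgenes Tg(wt1b:eGFP; mpeg1:mCherry), collected 4 days after part of the ventricle had been frozen (cryoinjury). The compared populations were the mpeg1:mCherry/wt1b:eGFP cells, called double positive, and the mpeg1:mCherry cells without eGFP, called single positive. Both populations came from injured hearts of the same line, so neither is an uninjured control. Each had 4 libraries, numbered 1, 2, 4 and 5, every library was made from a pool of 5 to 7 hearts, and libraries 1 and 2 belong to library batch 1 and libraries 4 and 5 to batch 2. Membership of a population rests on reporter fluorescence, and in zebrafish the mpeg1 promoter is also known to be active in B lymphocytes. The comparison sets mpeg1 reporter cells in which the wt1b reporter is active beside those in which it is not, here for the genes that set the capacity to degrade engulfed material.

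Macrophages that clear dead cells and matrix after an injury deliver that cargo to lysosomes. The vacuolar proton pump, made of a cytosolic V1 sector that hydrolyses ATP and a membrane V0 sector that carries protons, acidifies the lumen. The low pH lets cathepsins cut proteins and lets glycosidases and sialidases trim sugars from glycoproteins and glycolipids, while channels of the mucolipin family release calcium and other cations from the organelle.

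The deposited values are normalized counts, a linear scale on which a library sums to 868929 to 1021901 in double positive and 803220 to 951137 in single positive libraries, with no record of how many reads stand behind them. The transcript of wt1b checks the sort and had 13.6 to 63.1 normalized counts in double positive and 0.122 to 0.469 in single positive libraries. For the mCherry reporter, 3 genes with the symbol MPEG1 were in the table. The labels do not say which of them the reporter's promoter comes from. MPEG1 ENSDARG00000043093 was at 191 to 601 in double positive and 4.98 to 89.5 in single positive libraries (limma adjusted p = 0.000734). MPEG1 ENSDARG00000055290 was at 167 to 452 in double positive and 302 to 536 in single positive libraries (limma adjusted p = 0.496), and MPEG1 ENSDARG00000078569 was at 0.0730 to 13.5 in double positive and 0.0928 to 4.82 in single positive libraries. Double positive library 1 stands apart, with 42.3% of all genes under 1, against 10.7% to 19.7% in the other double positive and 14.7% to 19.0% in the single positive libraries. Markers of cell types were compared between the populations (limma, calls at an adjusted p under 0.05). The marker lists, like the member set, were chosen with earlier results of these data known. Over all tested genes 3.88% were higher and 2.81% lower. Of 6 lymphocyte markers 5 were lower and 0 higher in double positive cells, with a summed level of 66.2 to 163 in double positive and 619 to 1425 in single positive libraries. The B lymphocyte markers ighm, PAX5 and cd79a all lay under 1 in every double positive library. Of 27 macrophage markers 14 were higher and 1 lower (IRF8), with sums of 14768 to 21085 in double positive and 12529 to 15598 in single positive libraries. That list and its sums are not specific to macrophages, since they include pan-leukocyte genes. Among these, ptprc and LCP1 averaged 1061 and 383 in double positive and 1014 and 398 in single positive libraries. The sums were 1233 to 2104 in double positive and 675 to 827 in single positive libraries for neutrophil markers (2 of 6 higher, 0 lower, among them NCF1, which macrophages also use), and 93.7 to 259 in double positive and 248 to 578 in single positive libraries for endothelial markers (0 of 8 higher, 1 lower). They were 32.4 to 191 in double positive and 94.4 to 381 in single positive libraries for cardiomyocyte markers (0 of 9 higher, 1 lower), and 524 to 3106 in double positive and 173 to 1673 in single positive libraries for epicardial and fibroblast markers (2 of 9 higher, 0 lower). Thrombocyte markers (1 of 4 higher, 0 lower, the one being f13a1b, also known from macrophages) summed to 364 to 988 in double positive and 16.2 to 79.0 in single positive libraries, and of erythroid markers only gata1a was tested, at 0.275 to 15.6 in double positive and 0.294 to 11.8 in single positive libraries. In sorted pools of this kind, fewer macrophages in a population and less lysosomal RNA per macrophage cannot be told apart. The part of the marker differences in the results on lysosomal genes was not tested.

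Lysosomal and pump genes lay mostly higher in double positive cells, with 13 of 48 members higher, 1 lower and 34 without a call (limma, adjusted p under 0.05 over all 10127 tested genes, of which 6.69% were called in either direction). Those shares are 27.1% higher and 2.08% lower, against a background of 3.88% higher and 2.81% lower over all tested genes. The median log2 fold change of the 48 members was 0.76, and that of all tested genes was -0.16. Positive values were found in 38 of 48 members (79.2%), against 43.8% of all tested genes. The populations did not overlap in 21 members (43.8%), against 14.1% of all tested genes. In 19 of these (39.6%, against 7.12% of all tested genes) all double positive values were the higher ones, and in the other 2, NEU1 and GBA2, the lower ones. At an unadjusted p under 0.05, 25 members were higher and 1 lower, where the background is 9.05% and 10.0%. Over all tested genes 393 were higher and 285 lower. Centring each library on its median made this 542 and 220, moved the median of all tested genes to 0.12 and that of the members to 1.04. Scaling the columns to a common total gave medians of -0.26 for all tested genes and 0.64 for the members, and quantile normalization -0.0374 and 0.70. Without double positive library 1 they were 0.0139 and 0.98. The shares over all tested genes were not matched for level. The median gene of a library lay at 7.21 to 20.4 normalized counts, and many members lay above that. Shares among genes of like level were not computed.

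The test borrows the usual spread of genes of like level (a mean-variance trend). Without that trend 0 of 48 members passed in either direction (limma, smallest adjusted p = 0.0834), while 319 of 10127 tested genes did. At an unadjusted p under 0.05 there were 16 of 48 members, against 1678 of 10127 tested genes. The plot of fold changes by role shows 46 members.

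**Figure D1:**
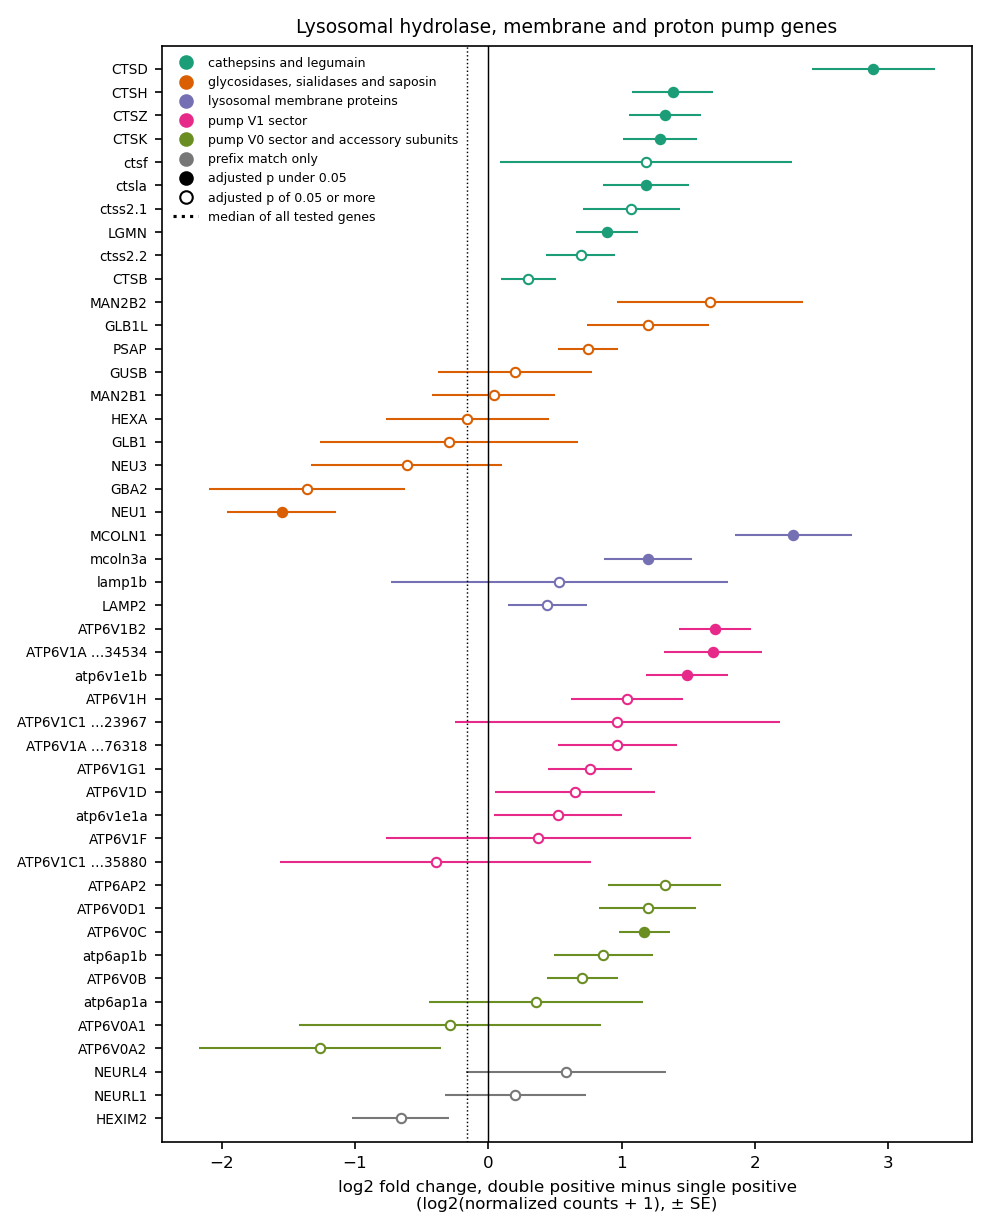
Log2 fold change of 46 member genes, double positive minus single positive, on the log2(normalized counts + 1) scale, with bars of 1 SE, grouped by role. Filled points passed an adjusted p under 0.05 (12 to the right of 0, NEU1 to the left), and the dotted line marks the median of all tested genes at -0.16.

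Cathepsins and legumain were the group with the largest share of calls. Of its 10 members 6 rose, 0 fell (limma) and 4 had no call, against 3.88% higher and 2.81% lower over all tested genes. All 10 log2 fold changes were above 0, and their median was 1.18 with a range of 0.30 to 2.89. CTSD, the aspartic protease of lysosomes, had 792, 673, 818 and 1065 normalized counts in double positive libraries 1, 2, 4 and 5, against 256, 250.4, 24.5 and 93.3 in single positive libraries 1, 2, 4 and 5. The lowest double positive value was thus above the highest single positive one, and the single positive libraries of batch 2 were lower than those of batch 1. Its log2 fold change was 2.89 ± 0.46 (SE, with adjusted p = 0.00116 by limma), with batch 1 at 1.53 and batch 2 at 4.25.

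The cysteine cathepsins that rose did so by smaller amounts. CTSH, which acts mainly as an aminopeptidase, had 208, 331, 389 and 241 in double positive libraries, against 122, 126, 90.5 and 97.5 in single positive libraries, each in the order 1, 2, 4 and 5 as in all such lists that follow. CTSZ, a carboxypeptidase, had 406, 409.7, 589 and 556 in double positive libraries, against 272, 217, 153 and 152 in single positive libraries. CTSK, known in mammals as the collagen-degrading protease of osteoclasts, had 426, 393, 317 and 277 in double positive libraries, against 139, 188, 92.6 and 168 in single positive libraries. In none of these did the populations overlap, and CTSK was the one whose difference was no larger in batch 2 (batch 1 at 1.34 and batch 2 at 1.24). The log2 fold changes were 1.38 ± 0.31 (SE, with adjusted p = 0.0109 by limma) for CTSH, 1.32 ± 0.27 (SE, with adjusted p = 0.00683 by limma) for CTSZ and 1.29 ± 0.28 (SE, with adjusted p = 0.00949 by limma) for CTSK. Without double positive library 4 the call of CTSH was lost (adjusted p = 0.0737), and those of CTSD, CTSZ and CTSK passed whichever 1 library was left out. The log2 fold change of CTSD was 2.24 without single positive library 4. It was 1.70 without both single positive libraries of batch 2, in a fit not adjusted for batch. Without both, the calls of CTSH, CTSZ and CTSK were lost (adjusted p = 0.0605, 0.0599 and 0.0548), and that of CTSK also in batch 2 alone (adjusted p = 0.104).

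ctsla, of the cathepsin L family of endopeptidases, had 303, 404, 439 and 384 in double positive libraries, against 173, 314, 163 and 86.9 in single positive libraries. Single positive library 2 reached above double positive library 1, so the populations overlapped, and the log2 fold change was 1.18 ± 0.32 (SE, with adjusted p = 0.0364 by limma). LGMN, the asparaginyl endopeptidase legumain that also cleaves and activates other lysosomal proteases, had 1423, 1266, 1309 and 1401 in double positive libraries, against 1095, 1165, 442 and 496 in single positive libraries. The double positive values were close together and the single positive ones split by batch. The log2 fold change of LGMN was 0.89 ± 0.23 (SE, with adjusted p = 0.0295 by limma), with batch 1 at 0.25 and batch 2 at 1.53. The call of ctsla was lost without any of 6 libraries (double positive 2, 4 or 5, single positive 1, 4 or 5, adjusted p up to 0.151), and that of LGMN without any of the 4 libraries of batch 2 (adjusted p up to 0.123). Without both single positive libraries of batch 2, in a fit not adjusted for batch, the log2 fold change of LGMN was 0.26.

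Of the members of this group without a call, both cathepsin S genes had log2 fold changes above 0. ctss2.1 had 277, 174, 203 and 160.5 in double positive libraries, against 160.1, 64.4, 64.7 and 117 in single positive libraries, with a log2 fold change of 1.07 ± 0.36 (SE, with adjusted p = 0.0935 by limma), and its populations did not overlap. ctss2.2 averaged 522 ± 118 (SD) in double positive and 326 ± 94.5 (SD) in single positive libraries, n = 4 each, with a log2 fold change of 0.69 ± 0.26 (SE, with adjusted p = 0.135 by limma). In mammals, cathepsin S trims the invariant chain CD74 during antigen presentation. CTSB, a cysteine protease, had 1283, 1239, 1216 and 1376 in double positive libraries, against 1311, 1497, 695 and 845 in single positive libraries. Both single positive libraries of batch 1 were above or within the double positive range and both of batch 2 below it, and the log2 fold change was 0.30 ± 0.20 (SE, with adjusted p = 0.468 by limma), with batch 1 at -0.15 and batch 2 at 0.75. ctsf stayed low in both populations, at 9.97 to 18.1 in double positive and 1.52 to 12.1 in single positive libraries (adjusted p = 0.617).

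**Figure D2:**
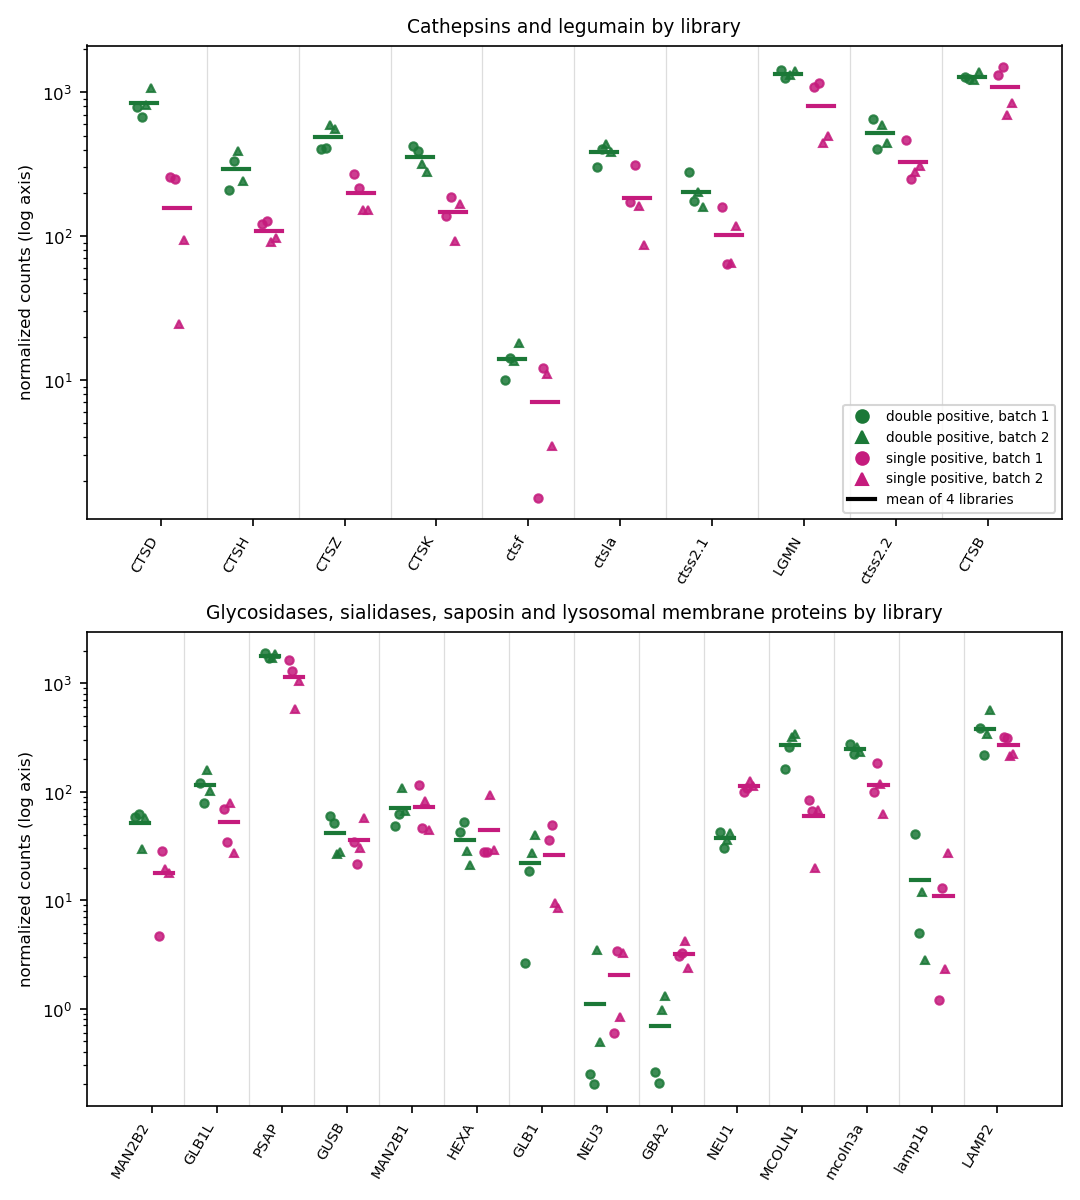
Normalized counts (log axis) of cathepsins and legumain in the upper panel, and of glycosidases, sialidases, the saposin precursor and lysosomal membrane proteins in the lower panel, 1 point per library, with double positive libraries left of single positive ones, circles for batch 1, triangles for batch 2 and lines at the mean of 4 libraries. The populations are apart with double positive values higher for CTSD, CTSH, CTSZ, CTSK, ctss2.1, LGMN, MAN2B2, PSAP, MCOLN1 and mcoln3a, and with double positive values lower for NEU1 and GBA2.

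Glycosidases, sialidases and the saposin precursor showed no common direction. Of 12 members 1 rose (8.33%, against 3.88% of all tested genes), 1 fell (8.33%, against 2.81%, limma) and 10 had no call. Of the log2 fold changes 6 were above 0 and 6 below, and the median was -0.0166. By batch the median was -0.0494 in batch 1 and 0.79 in batch 2, against -0.40 and 0.077 for all tested genes. The member that fell was NEU1, the lysosomal sialidase, which in mammals works in a complex with beta-galactosidase (GLB1) and cathepsin A. NEU1 had 42.9, 30.5, 36.2 and 41.6 in double positive libraries, against 99.6, 109, 126 and 113 in single positive libraries. No library of either population came near the range of the other, and the log2 fold change was -1.55 ± 0.41 (SE, with adjusted p = 0.0298 by limma), with batch 1 at -1.50 and batch 2 at -1.60. The call was kept without double positive library 1 and was lost without any of the other 7 libraries (adjusted p up to 0.0963). With each library centred on its median, the log2 fold change was -1.27 and did not pass (limma adjusted p = 0.174).

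HEXA, the alpha subunit of a hexosaminidase that cuts terminal hexosamines from glycolipids, had 42.5, 52.7, 28.5 and 21.3 in double positive libraries, against 27.9, 28.0, 93.6 and 28.9 in single positive libraries, where library 4 was far above the other 3. Its log2 fold change was -0.16 ± 0.61 (SE, with adjusted p = 0.935 by limma).

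PSAP, the precursor of the saposins that help hydrolases reach sphingolipids, had 1888, 1719, 1717 and 1869 in double positive libraries, against 1632, 1311, 582 and 1052 in single positive libraries. The lowest double positive value was above the highest single positive one, yet at a log2 fold change of 0.75 ± 0.22 (SE, with adjusted p = 0.0534 by limma) PSAP did not pass. It passed without double positive library 1 or 2 or single positive library 1 (adjusted p = 0.0425, 0.0424 and 0.0410). GLB1L, a beta-galactosidase-like gene, averaged 115 ± 33.8 (SD) in double positive and 52.7 ± 25.8 (SD) in single positive libraries, n = 4 each, with overlapping libraries and a log2 fold change of 1.197 ± 0.46 (SE, with adjusted p = 0.146 by limma). MAN2B2, an alpha-mannosidase gene, had 58.1, 61.9, 29.5 and 57.2 in double positive libraries, against 4.71, 28.7, 19.5 and 17.9 in single positive libraries, without overlap and at a log2 fold change of 1.66 ± 0.70 (SE, with adjusted p = 0.194 by limma). The remaining enzymes were further from the threshold.

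The beta-galactosidase gene GLB1 averaged 22.3 ± 15.8 (SD) in double positive and 26.0 ± 20.4 (SD) in single positive libraries, n = 4 each. It was low in double positive library 1, at 2.62, and its direction differed between batches (batch 1 at -2.37 and batch 2 at 1.78). The lysosomal alpha-mannosidase gene MAN2B1 averaged 71.5 ± 26.2 (SD) in double positive and 71.9 ± 33.6 (SD) in single positive libraries, n = 4 each, and the beta-glucuronidase gene GUSB averaged 41.6 ± 16.7 (SD) in double positive and 36.1 ± 15.4 (SD) in single positive libraries, n = 4 each. The adjusted p of these 3 genes lay between 0.909 and 0.982. The non-lysosomal GBA2 had 0.259, 0.208, 0.980 and 1.30 in double positive libraries, against 3.05, 3.28, 4.18 and 2.37 in single positive libraries, lower in 4 of 4 but at values near the floor of the table and with an adjusted p of 0.338. NEU3 lay between 0.201 and 3.47 in double positive and between 0.592 and 3.39 in single positive libraries (adjusted p = 0.708).

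Among the 4 lysosomal membrane proteins both mucolipin channel genes rose, against 3.88% of all tested genes, and neither LAMP gene had a call. MCOLN1, the main lysosomal calcium release channel, had 162, 257, 318 and 339.9 in double positive libraries, against 84.0, 66.0, 19.6 and 67.3 in single positive libraries. The populations did not overlap, and the log2 fold change of 2.29 ± 0.44 (SE, with adjusted p = 0.00416 by limma) passed whichever library was left out, with batch 1 at 1.44 and batch 2 at 3.14. mcoln3a, a related channel gene, had 279, 225, 261 and 231 in double positive libraries, against 99.1, 184, 117 and 62.5 in single positive libraries. Here too there was no overlap, but the log2 fold change of 1.197 ± 0.33 (SE, with adjusted p = 0.0367 by limma) lost its call without any of 5 libraries (double positive 4 or 5, single positive 1, 4 or 5, adjusted p up to 0.143), with columns scaled to a common total (adjusted p = 0.0582) and with quantile normalization (adjusted p = 0.0617). LAMP2, one of the abundant glycoproteins that line the lysosomal membrane, had 389, 218, 342 and 570.3 in double positive libraries, against 321, 311, 215 and 224 in single positive libraries, with a log2 fold change of 0.44 ± 0.30 (SE, with adjusted p = 0.459 by limma). lamp1b was low and scattered, at 2.79 to 41.1 in double positive and 1.199 to 27.1 in single positive libraries (adjusted p = 0.884).

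The proton pump genes had 4 of 19 members higher (21.1%, against 3.88% of all tested genes) and 0 lower (limma). At an unadjusted p under 0.05, 11 were higher (57.9%, against 9.05% of all tested genes) and 0 lower. The log2 fold changes were above 0 in 16 of 19, with a median of 0.86. In the V1 sector 3 of 11 members rose. These were an A, a B and an E subunit, where A and B form the ring that hydrolyses ATP and E is part of the peripheral stalks. ATP6V1B2 had 518, 483, 532 and 616 in double positive libraries, against 234, 201, 104 and 147 in single positive libraries. ATP6V1A ENSDARG00000034534 had 146, 179, 142 and 221 in double positive libraries, against 69.6, 52.3, 39.0 and 51.1 in single positive libraries. The E subunit gene atp6v1e1b had 292, 321, 303 and 308 in double positive libraries, against 141, 116, 133 and 62.7 in single positive libraries. In all of them the double positive libraries lay above all single positive ones, and ATP6V1B2 had the smallest p of the 48 members.

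On the log2 scale ATP6V1B2 rose by 1.70 ± 0.27 (SE, with adjusted p = 0.00109 by limma), ATP6V1A ENSDARG00000034534 by 1.69 ± 0.37 (SE, with adjusted p = 0.00999 by limma) and atp6v1e1b by 1.49 ± 0.31 (SE, with adjusted p = 0.00697 by limma). The call of ATP6V1A ENSDARG00000034534 was lost without double positive library 5 (adjusted p = 0.0763), and the others were kept whichever library was left out. ATP6V1H, a regulatory subunit, averaged 102 ± 27.1 (SD) in double positive and 49.0 ± 12.1 (SD) in single positive libraries, n = 4 each, without overlap but without a call, at a log2 fold change of 1.04 ± 0.42 (SE, with adjusted p = 0.176 by limma). The second gene for the A subunit, ATP6V1A ENSDARG00000076318, averaged 149 ± 46.1 (SD) in double positive and 84.5 ± 49.0 (SD) in single positive libraries, n = 4 each, with a log2 fold change of 0.97 ± 0.45 (SE, with adjusted p = 0.246 by limma), with batch 1 at -0.12 and batch 2 at 2.06. The stalk subunit ATP6V1G1 averaged 247 ± 41.1 (SD) in double positive and 154 ± 70.5 (SD) in single positive libraries, n = 4 each, with a log2 fold change of 0.76 ± 0.31 (SE, with adjusted p = 0.183 by limma).

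The rest of the V1 sector was far from the threshold, with adjusted p-values from 0.613 to 0.914. These were the central stalk genes ATP6V1D and ATP6V1F, the E subunit gene atp6v1e1a and both ATP6V1C1 genes, whose C subunit helps join V1 to V0. The C subunit genes were at 0.466 (ATP6V1C1 ENSDARG00000023967) and 0.398 (ATP6V1C1 ENSDARG00000035880) in double positive library 1, against 42.2 to 115 and 32.2 to 63.0 in double positive libraries 2, 4 and 5. Without double positive library 1, the log2 fold change of ATP6V1C1 ENSDARG00000023967 was 2.55 (limma adjusted p = 0.0342) and that of ATP6V1C1 ENSDARG00000035880 was 1.12, against 0.97 and -0.39 with all libraries.

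In the V0 sector with the accessory subunits 1 of 8 members rose (12.5%, against 3.88% of all tested genes) and 0 fell (limma). At an unadjusted p under 0.05, 5 were higher (62.5%, against 9.05%) and 0 lower, and the median log2 fold change was 0.79. ATP6V0C, the proteolipid whose copies form the proton-carrying ring, had 1077, 1007, 1334 and 1289.7 in double positive libraries, against 571, 461, 479.6 and 571 in single positive libraries. Its libraries were close together within each population and far apart between them. The log2 fold change was 1.17 ± 0.19 (SE, with adjusted p = 0.00119 by limma), with similar sizes in the batches (batch 1 at 1.02 and batch 2 at 1.32), and the call was kept whichever library was left out.

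ATP6V0D1, the subunit that caps the ring, had 165, 181, 171 and 159.8 in double positive libraries, against 94.6, 70.8, 41.2 and 104 in single positive libraries. ATP6AP2, an accessory subunit also known as the prorenin receptor, had 69.7, 126, 145 and 157 in double positive libraries, against 48.9, 52.4, 30.0 and 62.3 in single positive libraries. The accessory subunit gene atp6ap1b averaged 131 ± 24.8 (SD) in double positive and 72.9 ± 21.8 (SD) in single positive libraries, n = 4 each. None of these overlapped between populations, and none passed over all 8 libraries, at log2 fold changes of 1.196 ± 0.36 (SE, with adjusted p = 0.0581 by limma) for ATP6V0D1, 1.32 ± 0.42 (SE, with adjusted p = 0.0761 by limma) for ATP6AP2 and 0.86 ± 0.37 (SE, with adjusted p = 0.209 by limma) for atp6ap1b. ATP6V0B, a second ring subunit, averaged 558 ± 127 (SD) in double positive and 346 ± 102 (SD) in single positive libraries, n = 4 each with overlap, with a log2 fold change of 0.71 ± 0.27 (SE, with adjusted p = 0.145 by limma). Without double positive library 1, ATP6V0B, ATP6AP2 and ATP6V0D1 passed (limma adjusted p = 0.0199, 0.0187 and 0.0480). Leaving out any other library did not make them pass. In the fit without double positive library 1, 805 genes were called over all tested genes, against 678 with all libraries.

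Both a subunit genes, whose products form the path by which protons cross the membrane, were without a call. Over all libraries their log2 fold changes were below 0, except that of ATP6V0A1 under quantile normalization (0.0754), and in batch 2 both were above 0 (batch 1 at -3.12 and batch 2 at 2.55 for ATP6V0A1, batch 1 at -2.58 and batch 2 at 0.0628 for ATP6V0A2). ATP6V0A1 had 1.22, 33.6, 49.5 and 79.8 in double positive libraries, against 48.8, 116, 2.65 and 31.8 in single positive libraries. ATP6V0A2 had 1.64, 33.9, 14.1 and 28.8 in double positive libraries, against 42.9, 74.5, 23.0 and 16.2 in single positive libraries. The lowest double positive value of both was in library 1, and the log2 fold changes were -0.29 (adjusted p = 0.936) and -1.26 (adjusted p = 0.497). Without that library they were 1.07 and -0.25, and in the whole set of 48 members double positive library 1 held 7 values under 1, against 1 to 2 in the other double positive and 1 to 3 in the single positive libraries. atp6ap1a stayed low, at 0.125 to 5.32 in double positive and 0.159 to 2.64 in single positive libraries (adjusted p = 0.874).

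**Figure D3:**
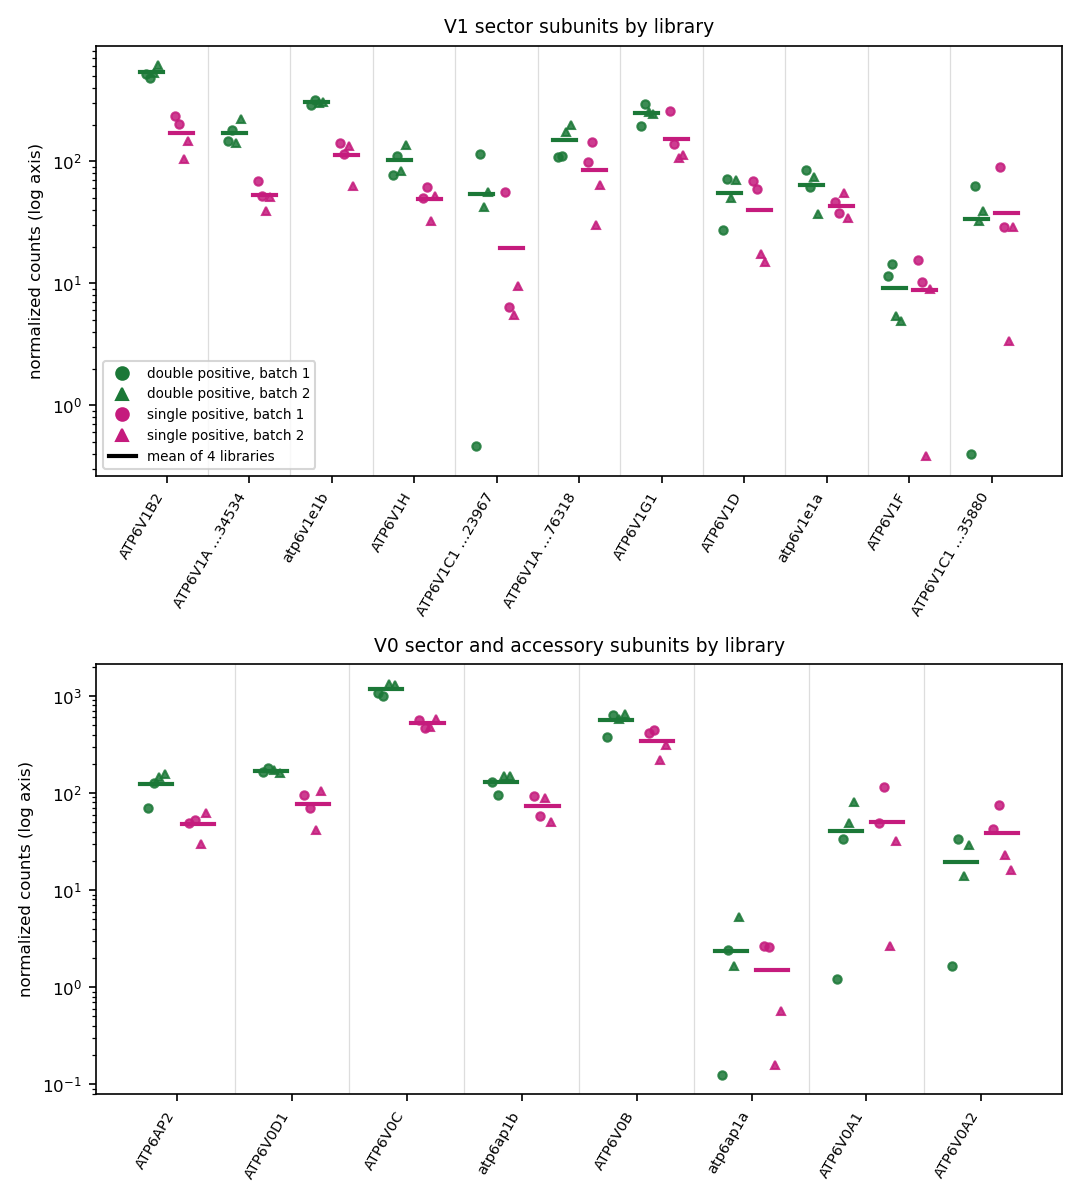
Normalized counts (log axis) of the V1 subunits in the upper panel and of the V0 and accessory subunits in the lower panel, drawn as in the plot of hydrolases. The populations are apart with double positive values higher for ATP6V1B2, ATP6V1A ENSDARG00000034534, atp6v1e1b, ATP6V1H, ATP6AP2, ATP6V0D1, ATP6V0C and atp6ap1b. ATP6V0C is tight within both populations, while both ATP6V1C1 genes, ATP6V0A1 and ATP6V0A2 have 1 low double positive point, library 1 of batch 1.

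Summed over the 45 hydrolase, membrane and pump genes, the values took 1.37, 1.32, 1.32 and 1.63% of the library total in double positive libraries, against 0.969, 0.972, 0.615 and 0.746% in single positive libraries. The sums did not overlap, and those of single positive libraries 4 and 5 were the lowest. Cathepsins and legumain took 0.614% ± 0.0537 in double positive and 0.355% ± 0.0998 in single positive libraries (SD, n = 4 each), a ratio of means of 1.73. The pump took 0.424% ± 0.0646 in double positive and 0.222% ± 0.0358 in single positive libraries, a ratio of 1.91. For membrane proteins the ratio was 1.89 and for glycosidases, sialidases and saposin 1.39. These sums are dominated by the members with the highest values, are not per transcript length, and were not tested.

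**Figure D4:**
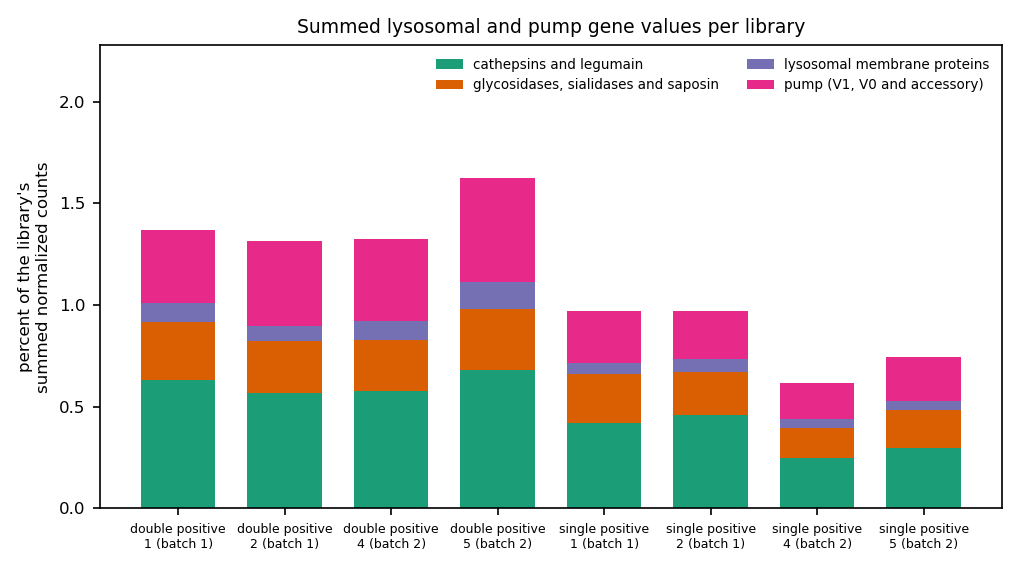
Percent of each library's summed normalized counts held by cathepsins and legumain (10 genes), glycosidases, sialidases and saposin (12 genes), lysosomal membrane proteins (4 genes) and the pump (19 genes), stacked, with the 4 double positive libraries left of the 4 single positive ones. The stacks reach 1.32% to 1.63% in double positive and 0.615% to 0.972% in single positive libraries.

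The size of the difference varied with library batch. The median log2 fold change of the members was 0.59 in batch 1 and 1.28 in batch 2, against -0.40 and 0.077 for all tested genes. The members called higher ran from 0.25 to 1.53 in batch 1 and from 1.24 to 4.25 in batch 2, and 12 of the 13 had the larger value in batch 2. In 12 of the 13 the lowest single positive value was in library 4 or 5. Opposite signs in the batches were seen in 16 members, and 11 of these averaged under 50 normalized counts. Signs were the same in 66.7% of members, against 58.4% of all tested genes. None (0) of the 16 was called, and opposite signs cancel in part in the fit over both batches. A test of the difference between batches, fitted over all tested genes with limma, called 0 of 48 members (smallest adjusted p = 0.208, 14 at an unadjusted p under 0.05) and 10 of 10127 genes (9.59% of genes at an unadjusted p under 0.05). Batch 1 alone called 0 members in limma and 0 of all tested genes. At an unadjusted p under 0.05 it held 11 of 48 members, against 1364 of 10127 genes. Batch 2 alone called 12 members higher and 0 lower, beside 412 higher and 152 lower over all tested genes. Without both single positive libraries of batch 2, 6 members were higher and 0 lower, namely CTSD, MCOLN1, ATP6V1B2, ATP6V1A ENSDARG00000034534, atp6v1e1b and ATP6V0C. That setting was not adjusted for batch. It set double positive libraries of both batches against single positive libraries of batch 1, so batch and population are partly mixed in it. Over all tested genes that setting called 207 higher and 135 lower.

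**Figure D5:**
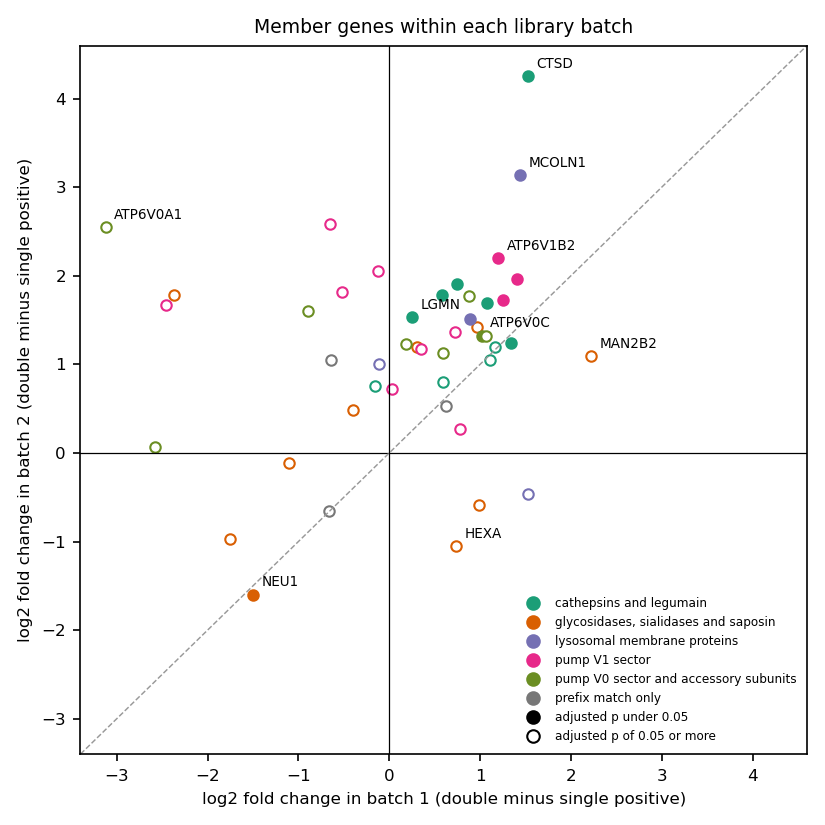
Log2 fold change of 46 members (double positive minus single positive) in batch 1 on the horizontal and in batch 2 on the vertical axis, each from 2 against 2 libraries, with the dashed line at equal values. The 12 members called higher that are drawn are above 0 on both axes, 11 of them above the line, and NEU1 is below 0 on both.

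For 6 pairs of genes that encode the same subunit or enzyme, the log2 ratio of the pair within a library was compared between populations, because a call in 1 gene and none in its partner does not show that they differ. The sources used here do not give how reads shared by such paralogs were split. With 4 against 4 libraries the smallest two-sided exact permutation p is 0.0286. The log2 ratio of atp6v1e1b over atp6v1e1a was 1.77, 2.36, 2.00 and 3.03 in double positive libraries, against 1.58, 1.60, 1.25 and 0.86 in single positive libraries. It was higher in 4 of 4 double positive libraries, a difference of 0.97 (exact permutation p = 0.0286, 0.171 adjusted over the 6 pairs). The log2 ratio of the A subunit genes ATP6V1A ENSDARG00000034534 over ATP6V1A ENSDARG00000076318 differed by 0.72 (exact permutation p = 0.143). The ratios of the ATP6V1C1 genes, of ctss2.1 over ctss2.2 and of atp6ap1b over atp6ap1a had exact permutation p-values of 0.114, 0.143 and 0.486. In these last pairs neither gene was called. None of the 6 pairs passed after adjustment. No pair alone could, since the smallest possible exact permutation p of 0.0286 became 0.171 over the 6 pairs. This outcome therefore does not show that the pairs are alike.

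Other lysosomal genes outside the symbol prefixes moved in part the same way. Of 37 further lysosomal hydrolases 4 rose and 0 fell (limma, 9 and 1 at an unadjusted p under 0.05), against the background of 3.88% and 2.81%, with a median log2 fold change of 0.16. The dipeptidyl peptidase gene DPP7 averaged 133 ± 49.3 (SD) in double positive and 15.3 ± 16.7 (SD) in single positive libraries, n = 4 each, and the tripeptidyl peptidase gene TPP1 averaged 197 ± 53.9 (SD) in double positive and 67.4 ± 12.1 (SD) in single positive libraries, n = 4 each. Their log2 fold changes were 3.53 and 1.51 (limma adjusted p = 0.00535 and 0.0145), and those of the acid nuclease genes dnase2 and rnaset2 were 1.66 and 1.79 (limma adjusted p = 0.0112 and 0.0120). The 26 further genes of lysosomal membrane and transport proteins held 4 that rose and 0 that fell (limma, 8 and 1 at an unadjusted p under 0.05), with a median of 0.29. They were the chloride and proton exchanger CLCN7 (1.68), the cholesterol exporter NPC1 (1.63) with its soluble partner NPC2 ENSDARG00000096979 (3.17), and the tetraspanin CD63 (0.75), at limma adjusted p-values of 0.0119 to 0.0454. A second and more abundant gene of that partner, NPC2 ENSDARG00000090912, had no call (0.82, limma adjusted p = 0.213). It averaged 160 in double positive and 95.1 in single positive libraries, with overlap.

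Of 20 genes that sort enzymes to lysosomes 2 rose and 0 fell (limma), against 3.88% and 2.81% of all tested genes. At an unadjusted p under 0.05 they were 3 and 0, against 9.05% and 10.0%, and the median was 0.67. GNPTAB, of the enzyme that starts the mannose 6-phosphate tag, averaged 147 ± 30.9 (SD) in double positive and 48.8 ± 27.1 (SD) in single positive libraries, n = 4 each, a log2 fold change of 1.71 (limma adjusted p = 0.0250). The endocytic receptor gene LRP1 averaged 1057 ± 478 (SD) in double positive and 47.3 ± 36.4 (SD) in single positive libraries, n = 4 each, a log2 fold change of 4.74 (limma adjusted p = 9.14e-05). The receptors that read the tag had no call, with M6PR at 78.3 in double positive and 72.5 in single positive libraries and IGF2R at 410.2 in double positive and 368 in single positive libraries. Among 13 genes of the transcription factors that switch on lysosomal genes and of their regulators, 1 rose and 0 fell (limma). At an unadjusted p under 0.05 they were 2 and 0, and the background is the same. The one that rose was FNIP2, a partner of folliculin (3.32, limma adjusted p = 0.0272). TFEB itself had 197, 145, 248 and 218 in double positive libraries, against 228, 134, 99.6 and 120.1 in single positive libraries, with overlap and an adjusted p of 0.435. Cystatins and other protease inhibitors (5 genes) and pump assembly factors (5 genes) had 0 calls in limma and 0 at an unadjusted p under 0.05, with medians of 0.14 and 0.70.

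The 3 genes caught by their prefix alone had no call (limma, 0 at an unadjusted p under 0.05). HEXIM2 averaged 91.1 ± 22.1 (SD) in double positive and 147 ± 46.8 (SD) in single positive libraries, n = 4 each, NEURL1 averaged 76.6 in double positive and 65.6 in single positive libraries, and NEURL4 lay between 0.299 and 5.20 in double positive and between 0.319 and 2.69 in single positive libraries. Leaving them out, the median log2 fold change of the 45 genes was 0.86.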

How the data were processed

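RNA sequencing values of 8 libraries from sorted zebrafish heart cells were analysed, 4 double positive and 4 single positive, grouped by the phenotype in the labels. The authors deposited 1 table of normalized counts, a signal on a linear scale. Per the submitters' processing notes, the build was Zv9 and the tools were cutadapt, CASAVA 1.8.2 and RSEM 1.2.3. The sources used here do not give their roles, the annotation, the gene filter or the normalization, nor whether counting used strand or how reads shared by paralogs were assigned, so near-identical copies are uncertain. No value is 0, the lowest is 0.0143, and the read depth is unknown, so values under 1 may come from the normalization. The deposited values may already carry a batch adjustment, which no label states, and standard errors could then be too small to an unknown degree.

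Symbols came from a table of identifiers that matched 8512 of 10479 (81.2%), and genes without a symbol could not be members. The 10127 genes tested had, in 4 or more of the 8 libraries, at least 1 per 1000000 of the library's summed values. Values were taken to log2(value + 1), and double minus single positive was fitted with limma 3.58.1 in R 4.3.3 with library batch as a covariate and a mean-variance trend, two-sided, with Benjamini-Hochberg adjustment over all tested genes and calls at an adjusted p under 0.05. Fold changes are on the log2(value + 1) scale, which understates changes of low genes. The isoform pairs, the test between batches and the fit without both single positive libraries of batch 2 were chosen after the values were seen. The last of these had no batch covariate. The members and all lists were chosen with earlier results of these data known. The genes named with full values are those called, those at an unadjusted p under 0.05, and the 3 of highest mean in each role. Other genes are named beyond that to account for every member. Numbers were not used as pairs. Same-numbered libraries had correlations of -0.29 to -0.11 over genes. The signs of such correlations followed batch, for a reason that was not tested, so they could not decide whether same-numbered libraries are pairs. Pools are separate samples per the labels, but whether populations share hearts is not stated. No sequence is shown, since none was used here. Some members are not reported here by name, and they stay in all fits, sums and counts.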

Additional observations from a re-analysis of the deposited data

Results flagged for a closer look

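Each group of 4 libraries was searched for a library far from the other 3 (Dixon's test at the 95% level), for 48 members and 96 groups in all, and 4 were found, which is no more than chance gives (about 1 group in 20). MAN2B2, an alpha-mannosidase gene, was 29.5 normalized counts in double positive library 4, against 57.2 to 61.9 in double positive libraries 1, 2 and 5. HEXA, the alpha subunit of hexosaminidase, was 93.6 in single positive library 4, against 27.9 to 28.9 in single positive libraries 1, 2 and 5, and without that library its log2 fold change was 0.35 (limma adjusted p = 0.835). The sialidase gene NEU3 was 3.47 in double positive library 4, against 0.201 to 0.495 in double positive libraries 1, 2 and 5. ATP6V1C1 ENSDARG00000023967 was 56.2 in single positive library 1, against 5.53 to 9.50 in single positive libraries 2, 4 and 5. None of these genes was called. No value of double positive library 1 was flagged, although 42.3% of all genes lay under 1 there. The search used linear values and does not show that no library stands apart.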

How the results depend on the processing

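The read depth is unknown and 5 residual degrees of freedom remain, which limits what could be detected among genes of low value. Over all tested genes 678 were called, and 319 without the mean-variance trend, 0 in batch 1 alone (1364 at an unadjusted p under 0.05, limma) and 342 without both single positive libraries of batch 2. The 13 members called higher became 0, 0 and 6 in these settings, and the 1 called lower became 0 in each, as it did under median centring, the replicate block and batch 2 alone (limma). Leaving out 1 library gave 270 to 805 calls over all genes. They were 270 and 321 when double positive library 5 or 4 was missing, and 357 and 386 when single positive library 4 or 5 was. The highest, 805, was without double positive library 1. The same fits called 8 to 18 members higher (8 without double positive library 4 or 5, 18 without double positive library 1) and 0 to 1 lower. CTSD, CTSZ, CTSK, MCOLN1, ATP6V1B2, atp6v1e1b and ATP6V0C kept their call whichever library was left out. No called member changed sign in any setting. Pseudocounts of 0.5 and 5, the filters and the fit without the batch covariate lost no call. With median centring ctss2.1, PSAP, ATP6AP2 and ATP6V0D1 also passed (limma adjusted p = 0.0459, 0.0337, 0.0416 and 0.0344). The share of calls that were higher was 58.0%, against 71.1% with median centring, 38.9% without the trend and 73.0% in batch 2 alone. The cause of these changes was not tested, nor whether the trend suits values normalized in an unknown way.

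Deviations of same-numbered libraries from their population means had correlations of -0.29 to -0.11. All pairs within a batch had correlations below 0 (-0.29 to -0.10) and all across batches above 0 (0.094 to 0.28). The signs thus followed batch, and same-numbered libraries did not stand out from other pairs of their batch. The cause of this pattern was not tested, and the correlations could not decide whether replicate numbers pair the libraries. With the replicate block 10 members were higher, 0 lower and 473 genes called in all, and among the calls lost were LGMN (limma adjusted p = 0.0558), mcoln3a (0.0584) and NEU1 (0.0594).

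Of members without a call, some changed sign. In batch 1 alone the log2 fold changes were -0.15 for CTSB, -0.40 for MAN2B1, 0.74 for HEXA, -0.12 for LAMP2, -0.65 for ATP6V1C1 ENSDARG00000023967, -0.12 for ATP6V1A ENSDARG00000076318, -0.52 for ATP6V1D, -0.89 for atp6ap1a and -0.64 for NEURL1. In batch 2 alone they were -0.59 for GUSB, 1.78 for GLB1, -0.46 for lamp1b, 1.67 for ATP6V1C1 ENSDARG00000035880, 2.55 for ATP6V0A1 and 0.0628 for ATP6V0A2. Median centring gave 0.12 for HEXA, quantile normalization -0.0538 for MAN2B1, 0.18 for GLB1, 0.12 for ATP6V1C1 ENSDARG00000035880 and 0.0754 for ATP6V0A1, and columns scaled to a common total -0.0729 for MAN2B1. Without both single positive libraries of batch 2, a setting chosen after seeing the data, they were -0.13 for CTSB, -0.0935 for MAN2B1, 0.28 for HEXA, -0.31 for ATP6V1D, -0.56 for ATP6V1F and -0.36 for atp6ap1a. Leaving out 1 library at a time, the ranges were -0.087 to 0.54 for GUSB, -0.23 to 0.39 for MAN2B1, -0.40 to 0.35 for HEXA, -0.82 to 0.61 for GLB1, -0.23 to 1.35 for lamp1b, -0.26 to 0.88 for ATP6V1F, -1.37 to 1.12 for ATP6V1C1 ENSDARG00000035880, -0.14 to 0.93 for atp6ap1a, -1.49 to 1.07 for ATP6V0A1 and -0.24 to 0.63 for NEURL1.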
